A study of Mus musculus with 33 samples.

Results

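The 9 regulators of odorant receptor choice described here, Lhx2, Ldb1, Emx2, Ebf1, Ebf2, Ebf3, Ebf4, Kdm1a and Atf5, were followed across every RNA column of a mouse series on the DNA methyltransferase Dnmt3a. They were taken by name, for their known roles and not for a measured value, and make up 9 of 14613 genes in the table of whole main olfactory epithelium (MOE) and 9 of 14744 in the table of sorted mature olfactory sensory neurons (mOSN). RNA came from 12 of the 33 samples, the mice were 3 weeks old, and the other 21 samples were not analysed here. The genotypes were homozygous null (Dnmt3a -/-, KO), heterozygous null (Dnmt3a +/-, Het) and wild type (Dnmt3a +/+, WT). The 6 MOE libraries held 1 library per genotype and treatment: after 10 min in a clean cage, mice met 80 µL of odor (octanal, acetophenone and amyl acetate in equal parts) or of water for 60 min. The 6 mOSN libraries, from neurons isolated by fluorescence-activated sorting, gave 1 pooled value per genotype from 2 libraries. Both KO mOSN libraries were made with the NuGEN kit from 100 ng of RNA and both WT libraries with ScriptSeq from 200 ng, with 1 of each for Het, so that kit and genotype cannot be told apart there. Every MOE library was made with NuGEN. The labels give neither the allele's construction nor the number of animals behind a library, so p-values below measure only the spread between these libraries.

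A maturing olfactory neuron expresses a single odorant receptor gene and silences the others, which lie in heterochromatin. Lhx2 and Ebf proteins bind receptor promoters and the receptor enhancers, Ldb1 tethers Lhx2-bound enhancers to each other, and Emx2 binds receptor promoters. The histone demethylase Kdm1a is needed for a first receptor to be switched on, and the receptor protein then triggers an unfolded protein response that raises translation of Atf5, which leads to neuronal maturation and shuts further choice.

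Whole reads recovered from the MOE values ranged from 9410063 to 17639584 per library, and the 9 regulators held between 225 reads (Emx2, KO odor) and 13951 reads (Ebf1, Het odor). Values are given on the scale deposited as RPKM (reads per length and library depth), called RPKM-scale below. Dnmt3a itself stood at 48.3 and 56.1 in the KO odor and water MOE, at 66.6 and 50.3 in the Het odor and water MOE, and at 89.0 and 84.4 in the WT odor and water MOE, and at 56.2, 119.9 and 175 in KO, Het and WT mOSN. The KO columns were thus below WT and above 0, and Het MOE overlapped KO MOE. Markers of the mature neuron were present in every column, with Omp between 249 and 5962 in MOE and at 7612, 10449 and 16660.5 in KO, Het and WT mOSN. The 8 sustentacular markers summed to 391, 338 and 289 in KO, Het and WT mOSN, against 11078 or more in every MOE library. In KO mOSN 6 of the 8 were above WT, 4 of them past 2-fold (median log2 0.98), whereas Cyp2g1 stood at 80.9 in KO and 132 in WT. Of all 14738 genes kept in mOSN, 2579 were at least 2-fold higher in KO than in WT, and 20.3% were 2-fold apart either way.

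The DNA just ahead of the regulators' own start sites was searched for the motifs that Ebf, LIM homeodomain and C/EBP-ATF proteins are known to bind. RefSeq promoter windows (mouse GRCm38.p6, 250 bases before the start) covered 8 of the 9 genes with 13 windows, and none was found for Ebf2. The 8-base Ebf core CCCNNGGG, read on both strands, occurred in the windows of 2 genes, Ebf3 and Ldb1. Those 60-base stretches are shown, each 5′ to 3′ on the gene's strand with the match in capitals, because they are the regulators' only matches to any motif searched. The Ebf3 stretch is chr7:137314446-137314505 on the minus strand, its match beginning 21 bases before the start, and the Ldb1 stretch is chr19:46039635-46039694 on the minus strand, its match beginning 47 bases before the start.
Ebf3: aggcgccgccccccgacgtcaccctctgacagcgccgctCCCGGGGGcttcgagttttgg
Ldb1: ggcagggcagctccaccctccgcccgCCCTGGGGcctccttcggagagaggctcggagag
The core is common: 2 of the 13 regulator windows held it, 2.74% of the 948 odorant receptor windows, and 11.8% of all 32851 windows. The full Ebf site TCCCNNGGGA, which contains the core, was found in 0 of the 13, in 0.422% of receptor windows and in 0.779% of all windows. TAATTA, a LIM homeodomain site, was found in 0 of the 13, in 18% of receptor windows and in 4.84% of all windows, and the C/EBP-ATF site TTGCATCA in 0 of the 13, in 1.05% of receptor windows and in 0.791% of all windows. The median GC content was 67.2% in the regulators' windows, 34% in receptor windows and 52.4% in all windows. A match of letters is a description of sequence and not evidence of binding.

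The regulators spanned about an order of magnitude in level, with Atf5 at the top of every column. Mean MOE levels per length over all 6 libraries were 836 ± 87.5 for Atf5, 685 ± 85.9 for Ebf2, 621 ± 83.1 for Ebf1, 365 ± 43.0 for Ebf3, 306 ± 46.4 for Lhx2, 118 ± 41.8 for Ebf4, 102 ± 12.5 for Kdm1a, 76.9 ± 10.8 for Ldb1 and 74.7 ± 13.2 for Emx2 (SD, n = 6). Each gene stood above the next in 6 of 6 libraries, except that Ebf4 was above Kdm1a in 4 of 6 and Ldb1 above Emx2 in 3 of 6. Ebf4 was below Kdm1a in Het odor (54.7 and 122) and in Het water (83.6 and 96.0), and above it in every KO and WT library. The difference within these 2 neighbouring pairs was not tested.

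Lhx2, the LIM homeodomain factor, stood in MOE at 277 in KO odor, 354 in KO water, 311 in Het odor, 245 in Het water, 282 in WT odor and 364 in WT water. The water library was the higher in KO and in WT and the lower in Het, and all genotypes overlapped. Ldb1, its adaptor, stood at 87.8 in KO odor, 82.4 in KO water, 83.6 in Het odor, 57.6 in Het water, 72.4 in WT odor and 77.9 in WT water. Both KO libraries lay above both WT libraries for Ldb1, and Het water was the lowest of the 6. Emx2, a homeobox factor, stood at 54.9 in KO odor, 73.3 in KO water, 93.9 in Het odor, 74.5 in Het water, 68.5 in WT odor and 83.1 in WT water. KO odor was the lowest and Het odor the highest of the 6 for Emx2, while KO water and Het water were nearly level (73.3 and 74.5).

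The Ebf genes, which encode early B-cell factors of the helix-loop-helix kind, had their lowest MOE levels in Het. Ebf1 stood at 695 in KO odor, 660.5 in KO water, 542 in Het odor, 492 in Het water, 658 in WT odor and 679.7 in WT water. Ebf2 stood at 733 in KO odor, 663 in KO water, 673 in Het odor, 529.7 in Het water, 753 in WT odor and 758 in WT water. For Ebf1 the Het libraries lay below the other 4, whereas for Ebf2 the Het odor library lay above KO water. Ebf3 stood at 428 in KO odor, 362 in KO water, 327 in Het odor, 308 in Het water, 378 in WT odor and 385 in WT water. Ebf4 stood at 170.0 in KO odor, 130.3 in KO water, 54.7 in Het odor, 83.6 in Het water, 129.8 in WT odor and 142 in WT water. Both Het libraries were again the lowest for Ebf3 and Ebf4, and Ebf4 was lowest in Het odor where the other Ebf genes were lowest in Het water.

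Kdm1a, the demethylase, stood at 107 in KO odor, 87.8 in KO water, 122 in Het odor, 96.0 in Het water, 105 in WT odor and 92.4 in WT water. Every odor library lay above every water library. Atf5, a bZIP factor whose protein level is set largely by translation, stood at 869 in KO odor, 898 in KO water, 876 in Het odor, 677 in Het water, 792 in WT odor and 904 in WT water. Only Het water stood apart for Atf5. Kdm1a shares genomic span with Luzp1 and Atf5 with Nup62, both also in the MOE table, and whether counting used strand is not given in the sources used here.

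**Figure D1:**
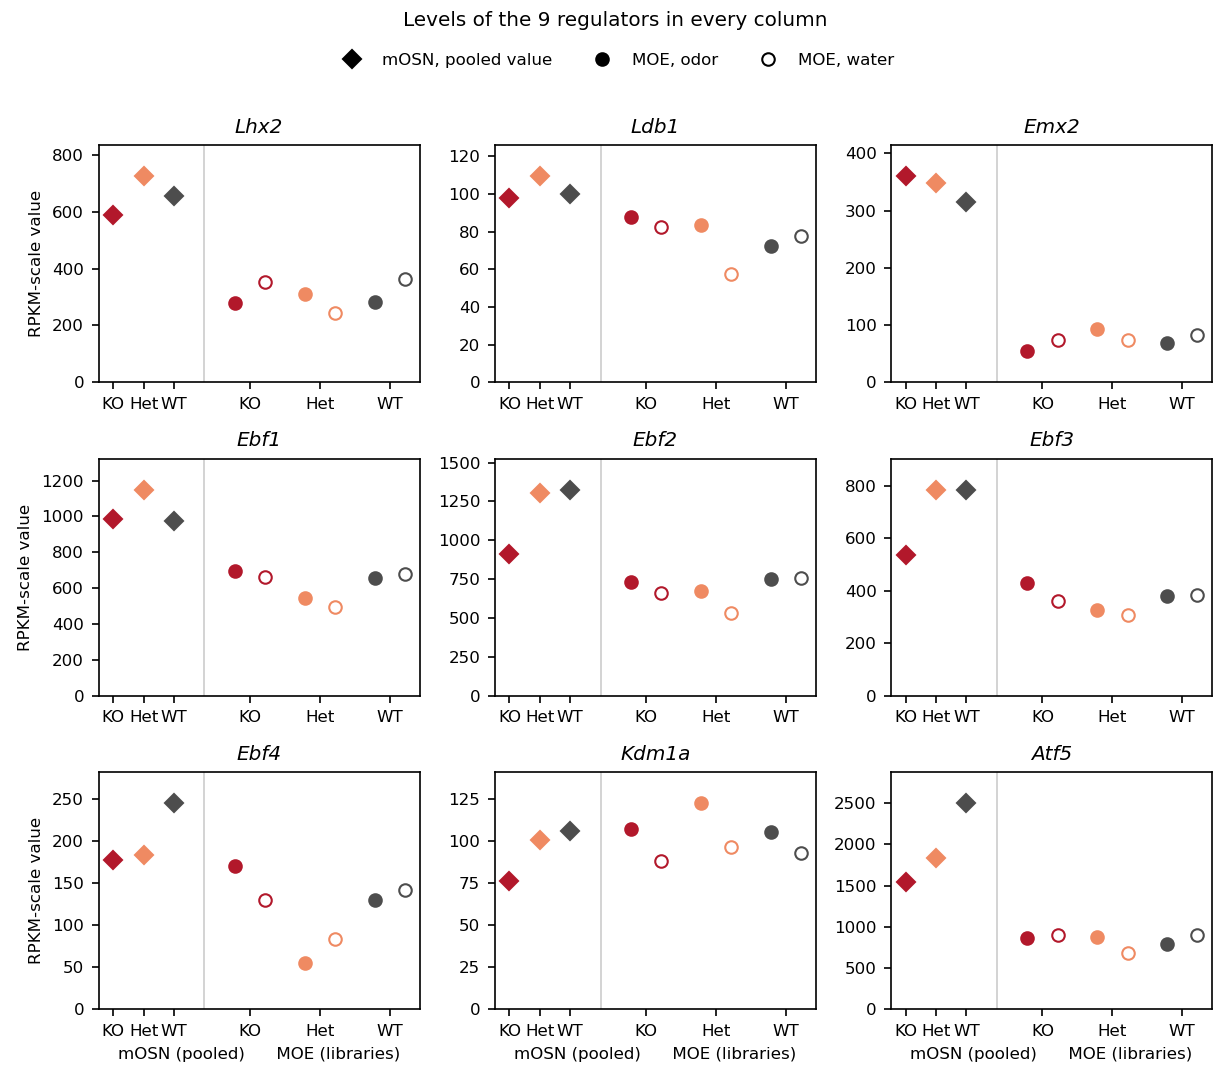
Deposited RPKM-scale values (linear axes) of each regulator, with diamonds for the pooled mOSN value and circles for single MOE libraries (filled, odor; open, water) of KO, Het and WT. The 4 Ebf panels show Het MOE libraries below WT, and the Kdm1a panel shows each filled circle above each open one.

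Levels in sorted neurons were set beside whole tissue of the same genotype, with water-exposed MOE as the tissue value. The 2 tables were normalized separately and only 1 column stands on each side, so the ratios are descriptive and have no test. The kit was the same on both sides in KO only. Between genotypes, ratios therefore differ by kit as well as by genotype, and these cannot be told apart. Emx2 had the highest ratio in every genotype, at 360.0 in KO mOSN against 73.3 in KO MOE (4.91-fold), 348 in Het mOSN against 74.5 in Het MOE (4.67-fold) and 316 in WT mOSN against 83.1 in WT MOE (3.80-fold). Kdm1a stood at the other end, at 0.868-fold in KO, 1.04-fold in Het and 1.14-fold in WT, close to the all-gene medians of 0.929, 0.974 and 0.997. Ldb1, at 1.19-, 1.90- and 1.28-fold in KO, Het and WT, was next lowest in every genotype.

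Atf5 was 1.72-fold higher in KO mOSN, 2.71-fold in Het mOSN and 2.77-fold in WT mOSN than in the matching tissue. Lhx2 was 1.66-, 2.96- and 1.80-fold higher in KO, Het and WT mOSN, and the Ebf genes ranged from 1.37-fold (Ebf4, KO) to 2.55-fold (Ebf3, Het). In KO, 1 regulator of 9 (Emx2) reached 2-fold, where 16.1% of all genes did. In Het 7 of 9 reached it, against 19.7% of genes, and in WT 3 of 9 (Emx2, Ebf3 and Atf5), against 17.6% of genes. With WT odor MOE as the tissue value, the WT count was 4 of 9, adding Lhx2, against 19.5% of genes. All regulators but Ldb1 and Kdm1a passed 2-fold in Het. The summed level of 10 mature-neuron markers in the water MOE was 20034 in KO, 10112 in Het and 23984 in WT, lowest in the genotype with the most regulators past 2-fold but not in the order of the counts in KO and WT. The part of this sum in the ratios, and that of the kit, was not tested.

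**Figure D2:**
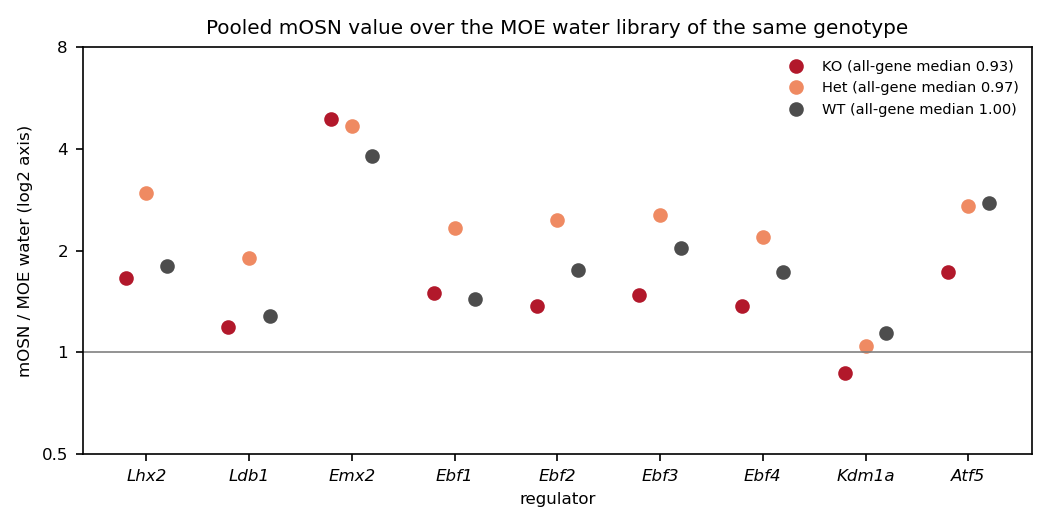
Ratio of the pooled mOSN value to the MOE water value of the same genotype for each regulator (log2 axis), with KO, Het and WT from left to right and the line at a ratio of 1. Emx2 sits highest in all genotypes (3.80 to 4.91) and Kdm1a nearest 1 (0.868 to 1.14).

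The exposure question is whether 60 min of odor moved the regulators' RNA. None of the 9 passed, and 2 of 14602 genes (0.0137%), both higher with odor, did so by limma with genotype as a block (threshold, Benjamini-Hochberg adjusted p of 0.05). Kdm1a had the largest estimate, at a mean of 112 ± 9.34 in odor and 92.1 ± 4.15 in water (SD, n = 3 libraries each). Its log2 fold change was 0.27 ± 0.15 (SE; 95% interval -0.10 to 0.65; limma adjusted p = 0.882), and it was higher with odor in 3 of 3 genotypes, by 0.28 in KO, 0.35 in Het and 0.19 in WT. A full separation of odor above water, as Kdm1a had, occurred for 7.77% of all genes.

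Of the other 8 regulators, estimates lay between -0.13 ± 0.19 for Lhx2 and 0.17 ± 0.19 for Ldb1 (log2 ± SE). Lhx2 moved by -0.35 in KO, 0.34 in Het and -0.37 in WT, and Emx2 by -0.41, 0.33 and -0.28 in the same order, so that both went the opposite way in Het. Ebf4 moved by 0.38 in KO, -0.61 in Het and -0.13 in WT. Atf5 moved by -0.05 in KO, 0.37 in Het and -0.19 in WT. Ebf2 moved by 0.14 in KO, 0.35 in Het and -0.01 in WT. The intervals of all 8 held 0, and the widest, that of Ebf4, ran from -0.67 to 0.44.

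Homozygous loss of Dnmt3a left no regulator past the test in MOE. By limma with treatment as a block 0 of 14602 genes (0.0%) passed (before adjustment, 185 genes lay above and 141 below WT at p under 0.05, and voom on the recovered reads also called 0), and each regulator's adjusted p was 0.999982. Estimates ran from -0.25 ± 0.26 for Emx2 to 0.18 ± 0.24 for Ldb1 (log2 ± SE). Ldb1 averaged 85.1 in KO and 75.2 in WT, and was the only regulator with both KO libraries above both WT libraries, an arrangement seen in 12.4% of genes. Ebf2 averaged 698 in KO and 755 in WT, and was the only regulator with both KO libraries below both WT libraries, as 13.3% of genes were. The receptor activators Lhx2, Ebf1 and Ebf3 had estimates of -0.03, 0.02 and 0.04, with 95% intervals of -0.62 to 0.55, -0.41 to 0.45 and -0.38 to 0.47. Kdm1a (-0.03), Atf5 (0.06) and Ebf4 (0.13) lay within 1 SE of 0.

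The largest estimates of Het against WT in MOE were those of the 4 Ebf genes, and no regulator passed. By limma 0 of 14602 genes (0.0%) passed (before adjustment, 395 lay above and 582 below WT at p under 0.05; voom also called 0; the lowest adjusted p was 0.706). Ebf4 averaged 69.1 in Het and 136 in WT, or 50.9% of WT, a log2 fold change of -0.999 ± 0.274 (SE; 95% interval -1.68 to -0.32; unadjusted p = 0.012; limma adjusted p = 0.706). It was the only regulator whose interval excluded 0, and without the Het odor library the estimate was -0.63. Ebf1 averaged 77.4% of WT (log2 -0.37 ± 0.17), Ebf2 79.6% (-0.34 ± 0.18) and Ebf3 83.1% (-0.27 ± 0.17), with limma adjusted p-values of 0.706, 0.706 and 0.718.

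Both Het libraries lay below both WT libraries for 4 of 9 regulators, the 4 Ebf genes, against 18.0% of all genes. Without the Het odor library the count was 7 of 9, adding Lhx2, Ldb1 and Atf5, against 33.1% of genes. Both Het libraries were below all other 4 for Ebf1, Ebf3 and Ebf4, against 11.6% of genes, and no regulator had both Het libraries above both WT libraries, as 19.0% of genes did. Lhx2 (-0.21 ± 0.24), Ldb1 (-0.11 ± 0.24) and Atf5 (-0.14 ± 0.21) gave log2 estimates whose sign differed between treatments, as did Emx2 (0.15 ± 0.26). For Lhx2 Het against WT was 0.14 in odor and -0.57 in water, for Ldb1 0.21 and -0.43, for Atf5 0.15 and -0.42, and for Emx2 0.45 and -0.16. Kdm1a was estimated at 0.13 ± 0.18, with the same sign in both.

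**Figure D3:**
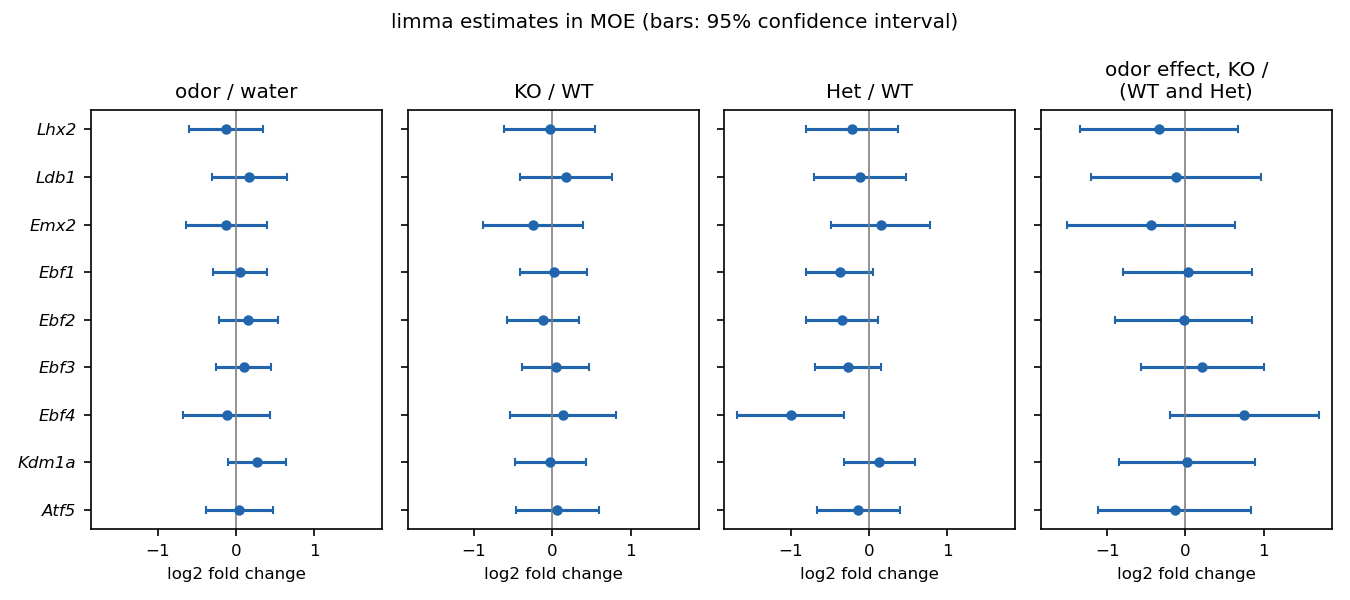
Log2 fold change of each regulator in MOE by limma, with its 95% confidence interval, for odor over water, KO over WT, Het over WT and the odor effect in KO over that in WT and Het. The interval of Ebf4 in Het over WT (-1.68 to -0.32) is the only one clear of 0.

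Ebf4 and the summed level of the mature-neuron markers ranked the 6 MOE libraries alike. The order of Ebf4 levels (KO odor, WT water, KO water, WT odor, Het water, Het odor) was the same as the order of the summed level of Omp, Gnal, Cnga2, Cnga4, Adcy3, Ano2, Stoml3, Gng13, Slc17a6 and Gnb1. Taken singly, Cnga2, Ano2 and Gng13 had this order and the other markers did not. Omp was highest in WT water (5962) and Slc17a6 in WT odor (866). The share of all genes with this order was not counted. The marker sum was 26727 in KO odor, 20034 in KO water, 5853 in Het odor, 10112 in Het water, 17775 in WT odor and 23984 in WT water. As a share of WT water, Ebf4 stood at 119.9% in KO odor, 91.9% in KO water, 38.6% in Het odor, 58.9% in Het water and 91.5% in WT odor, and the marker sum at 111%, 83.5%, 24.4%, 42.2% and 74.1%. The Het libraries were thus lowest for both, and the spread of the marker sum was the wider.

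Ebf1 had a flatter profile, at 102% of WT water in KO odor, 97.2% in KO water, 79.8% in Het odor, 72.4% in Het water and 96.8% in WT odor. The median level of 590 odorant receptor genes was 31.0 in KO odor, 19.0 in KO water, 7.02 in Het odor, 13.9 in Het water, 13.3 in WT odor and 26.4 in WT water, so that Het odor was again the lowest. Against WT, Het had 10 of 10 mature markers lower (median log2 -1.05), 8 of 9 immature-neuron markers higher (0.33) and 8 of 9 precursor markers higher (0.40), none past the limma test, beside an all-gene median of 0.02. The summed immature markers were highest in Het odor, at 5027, and between 2935 and 4086 in the other 5 libraries. In whole tissue, fewer cells of a type and less RNA per cell cannot be told apart, and the part of these markers in the Ebf values was not tested.

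**Figure D4:**
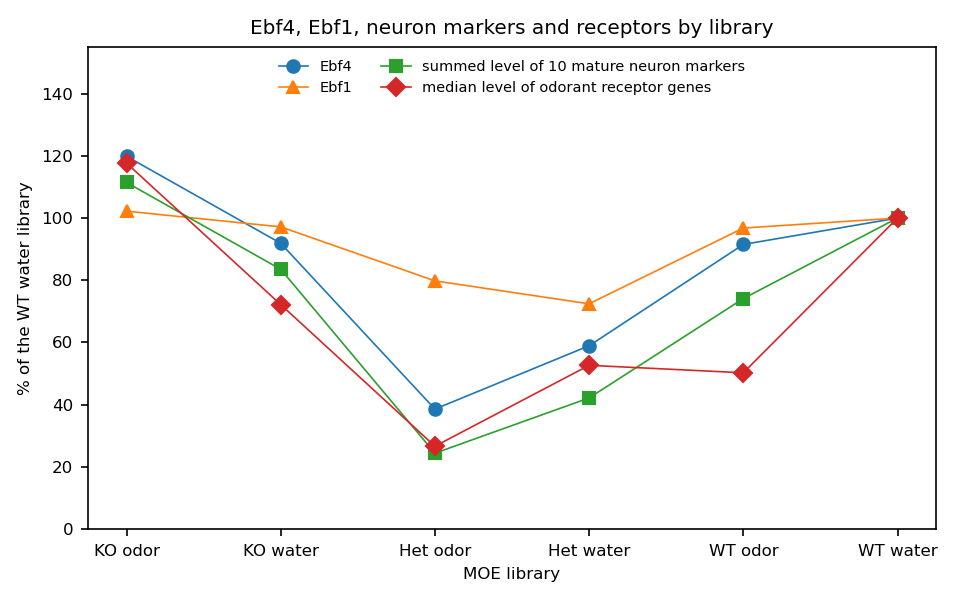
Level in each MOE library as a percentage of the WT water library for Ebf4, Ebf1, the summed level of 10 mature-neuron markers and the median of 590 odorant receptor genes, with KO, Het and WT from left to right. Ebf4 (38.6%), the marker sum (24.4%) and the receptor median (26.6%) are lowest in Het odor, where Ebf1 stands at 79.8%.

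Within the Ebf family Ebf1 and Ebf2 held most of the summed level in every column, and Ebf4 the least. Of the summed Ebf level per length, Ebf4 took 8.39% in KO odor, 7.18% in KO water, 3.43% in Het odor, 5.91% in Het water, 6.76% in WT odor and 7.22% in WT water. Both Het shares were below all the others. Ebf1 took between 34.0% and 36.4% in all 6 MOE libraries, Ebf2 between 36.2% (KO odor) and 42.2% (Het odor), and Ebf3 between 19.6% and 21.8%. In mOSN, Ebf1 took 37.8% in KO, 33.6% in Het and 29.3% in WT, Ebf2 34.8%, 38.1% and 39.8%, and Ebf4 6.82%, 5.37% and 7.36%. Ebf1 was therefore the leading family member in KO neurons and Ebf2 in Het and WT neurons.

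**Figure D5:**
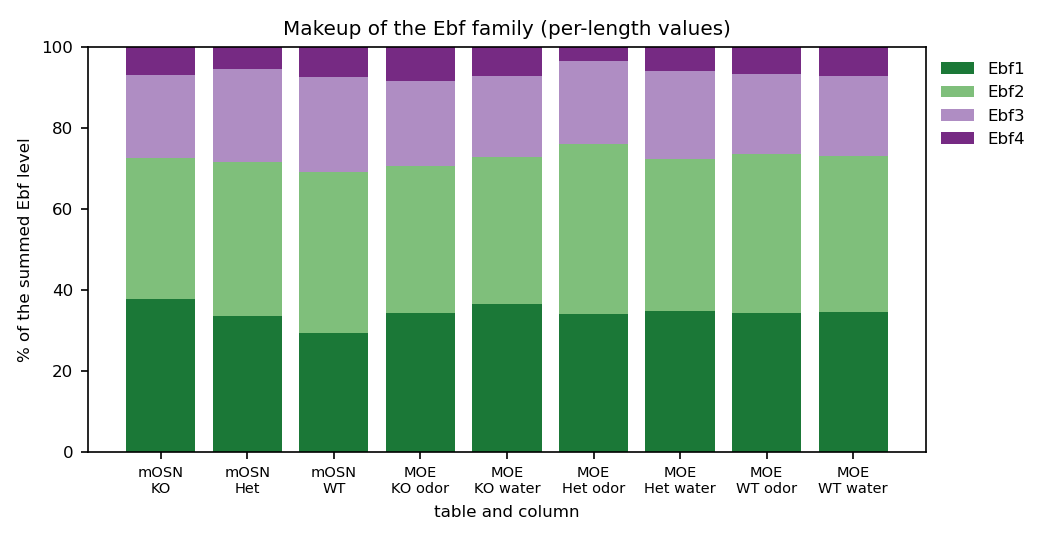
Share of each Ebf gene in the summed Ebf level (stacked to 100%) for the pooled mOSN columns (KO, Het, WT) and the 6 MOE libraries. The Ebf4 segment is thinnest in Het odor MOE (3.43%), and the Ebf1 segment is 37.8% in KO mOSN and 29.3% in WT mOSN.

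Whether odor acted differently in KO was asked with an interaction term that sets the KO odor effect against one shared by Het and WT, which leaves 1 residual degree of freedom. By limma 0 of 14602 genes (0.0%) passed, with 548 positive and 491 negative at p under 0.05 before adjustment, and voom also called 0. Ebf4 had the largest estimate among the regulators, 0.75 ± 0.38 (log2 ± SE; 95% interval -0.20 to 1.70; limma adjusted p = 0.770). Emx2 (-0.44 ± 0.43) and Lhx2 (-0.34 ± 0.41) followed, and the other 6 lay between -0.14 for Atf5 and 0.21 for Ebf3. The values depended on the genotype they were set against: with WT alone Ebf4 was at 0.51, Emx2 at -0.14, Lhx2 at 0.02 and Atf5 at 0.14, and with Het alone Ebf4 was at 0.99, Emx2 at -0.75, Lhx2 at -0.69 and Atf5 at -0.42 (log2, no test). In the same term 9 of 10 mature-neuron markers were positive (median 0.79), beside 0.00 for all genes, and their part in the Ebf4 value was not tested.

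In sorted neurons most regulators had lower pooled values in KO than in WT, without any 2-fold difference. Atf5 had 1548.5 in KO and 1832 in Het, against 2499.8 in WT, so that KO stood at 61.9% and Het at 73.3% of WT. Ebf2 had 909.9 in KO and 1304 in Het, against 1325 in WT, and Ebf3 536 in KO and 785 in Het, against 785 in WT. Only KO stood apart for Ebf2 and Ebf3, at 68.7% and 68.2% of WT. Ebf4 had 178 in KO and 184 in Het, against 245 in WT, and Kdm1a 76.2 in KO and 100.2 in Het, against 106 in WT.

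For Ebf4 both mutant columns were below WT (72.6% and 74.9%), whereas Kdm1a was lower mainly in KO (72.1%). Lhx2 had 588 in KO and 725 in Het, against 657 in WT, and Ldb1 98.1 in KO and 109 in Het, against 100.0 in WT. Ebf1 had 988 in KO and 1149 in Het, against 977 in WT, and Emx2 360.0 in KO and 348 in Het, against 316 in WT. In KO mOSN these last 4 regulators stood between 89.4% and 114% of WT, and Ebf1 reached 118% of WT in Het.

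Set against all genes, 7 of 9 regulators were lower in KO mOSN, where 57.2% of genes were, with a median log2 difference of -0.46 beside -0.13 for all genes. None was 2-fold apart, whereas 20.3% of genes were. In Het mOSN 4 of 9 were lower (52.4% of genes), with a median of 0.00 beside -0.02, and none was 2-fold apart (9.39% of genes). Scaling the columns by their median ratio, which shifts KO against WT by 0.14 (log2), gave -0.55 for Atf5, -0.40 for Ebf2, -0.41 for Ebf3, -0.33 for Kdm1a and -0.32 for Ebf4, left Lhx2 at -0.02 and turned Ldb1 to 0.11. In KO mOSN all 10 mature-neuron markers were also lower (median -0.69; summed level 60838 in KO and 84430 in Het, against 90539 in WT), and the 4 horizontal basal cell markers summed to 77.1 in KO and 17.4 in Het, against 9.83 in WT. The part of these markers in the regulators' values, and that of the kit, was not tested. In MOE, where every library had the same kit, KO averaged 104% of WT for Atf5 and 92.5% for Ebf2. It averaged 103% for Ebf3, 111% for Ebf4 and 98.5% for Kdm1a.

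Genes that work with the regulators were followed as lists, and none of their members passed limma in any MOE comparison. Among the partners of Lhx2 and Ldb1 and related LIM genes, 9 of 11 were measured in MOE, with 3 higher and 6 lower in Het (median log2 -0.08, all genes 0.02), the largest estimates being -0.48 for Ssbp2, a single-stranded DNA binding protein of the Ldb1 complex, and -0.30 for Rlim, a ubiquitin ligase of LIM cofactors. In KO MOE the largest were 0.25 for the LIM homeodomain gene Isl1 and -0.21 for the Ldb1 relative Ldb2. With odor they were 0.35 for the LIM-only gene Lmo1 and 0.28 for Ssbp4. In KO mOSN 3 of 8 measured were higher and 5 lower (median -0.18, all genes -0.13), with Lmo3 at 1.10 and Lmo2 at -0.97. Lmo3 was the only one of the 8 past 2-fold in that pair, as 20.3% of all genes were.

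The list of 9 genes for the Kdm1a complex also holds its relative Kdm1b. With odor 5 were higher and 4 lower (median 0.09, all genes 0.00). In KO MOE 6 were higher and 3 lower (0.06, all genes -0.01). The split was 5 and 4 both in Het MOE (0.02, all genes 0.02) and in KO mOSN (0.04, all genes -0.13). Rcor1, a CoREST scaffold, gave -0.34 in KO MOE, the histone deacetylase Hdac2 -0.29 with odor, and the scaffold Rcor2 0.47 in Het MOE. Kdm1b, the close relative of Kdm1a, stood 1.61 higher in KO mOSN than in WT mOSN (log2), and Rcor2 0.79 higher. Kdm1b was the only one of the 9 past 2-fold in that pair, as 20.3% of all genes were. No mOSN value of this list has a test, and the kit cannot be told apart from genotype in KO against WT.

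Receptor heterochromatin genes, which write or bind the repressive mark on histone H3 lysine 9 or anchor it, were lower in KO mOSN in 10 of 10 cases (median -0.50, all genes -0.13) and in Het mOSN in 9 of 10 (-0.28, all genes -0.02), beside 57.2% and 52.4% of all genes. The 10 mature-neuron markers were also all lower in KO mOSN (median -0.69), and their part in these values was not tested. The heterochromatin proteins Cbx5 and Cbx3 were lowest in KO, at -1.01 and -0.96, and Cbx5 and the corepressor Trim28 in Het, at -0.76 and -0.64. In MOE the same list was split, 5 higher and 5 lower in KO (median 0.02), 6 and 4 in Het (0.06) and 6 and 4 with odor (0.10). The methyltransferase genes Suv39h1 (0.25) and Suv39h2 (0.23) were largest in KO MOE and Suv39h2 (-0.70) and Trim28 (0.52) in Het MOE, and Lbr, the lamin B receptor, at 0.42 and Cbx1 at -0.33 with odor. The mOSN contrast has no test, and the kit cannot be told apart from genotype in it.

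In the unfolded protein response and receptor feedback list, 10 of 12 genes were lower in KO mOSN (median -0.40, all genes -0.13) and 6 of 12 in Het mOSN (-0.02, all genes -0.02). Of all genes, 57.2% were lower in KO mOSN and 52.4% in Het mOSN. Adcy3, the adenylyl cyclase that ends receptor switching, was lowest in KO mOSN at -0.78, and Reep1, a receptor trafficking gene, at -0.62. In Het MOE Adcy3 was at -1.03 ± 0.23 (limma adjusted p = 0.706) and Reep1 at -0.81 ± 0.20 (limma adjusted p = 0.706), and 7 of 12 were lower (median -0.09, all genes 0.02). With odor the largest estimates were -0.79 for Trib3 and -0.51 for Ddit3, both targets of Atf4. The chaperone gene Hspa5 (-0.43) and the eIF2α phosphatase subunit gene Ppp1r15a (-0.37) were largest in KO MOE. Adcy3 is also 1 of the 10 mature-neuron markers, all of which were lower in KO mOSN (median -0.69). Their part in these values was not tested. The mOSN values have no test, and the kit cannot be told apart from genotype in them.

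The Ebf-binding zinc finger genes Zfp423 and Zfp521 were at 0.16 and 0.88 in KO mOSN against WT, at -0.30 and 0.27 in KO MOE, and at -0.39 and -0.01 in Het MOE. Both were below WT in Het MOE, and their signs differed in KO MOE. Of the other receptor regulators, 7 of 7 measured were higher with odor (median 0.19, all genes 0.00), led by the homeobox gene Dlx5 (0.45). None of these 7 passed limma, and the share of all genes higher with odor was not counted. In Het MOE the largest were Dlx5 (0.37) and Nfix (0.31). In KO mOSN, Emx1, the relative of Emx2, was at 2.50 and Dlx5 at 1.19, with 4 of 8 higher (median 0.22, all genes -0.13). These 2 genes were past 2-fold, as 20.3% of all genes were. Emx1 was also largest in Het mOSN, at 1.28, where 9.39% of all genes were 2-fold apart. These mOSN values have no test. The kit cannot be told apart from genotype in KO against WT, and Het also differs from WT by kit in 1 of its libraries.

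Genes with the most alike MOE profile were sought for each regulator among 13521 genes with a mean of at least 5, by the root mean square difference of centred log2 values over the 6 libraries. Ebf4 had the fewest close neighbours, 10 genes within 0.1, the nearest being Sytl2 (0.066) and Pex5l (0.077). Kdm1a had 279 within 0.1, among them Rad54l2 (0.037), and Ebf3 had 217, led by Cbll1 (0.032) and Plekhm3 (0.039). The SD of log2 values was 0.55 for Ebf4, 0.16 for Kdm1a and 0.16 for Ebf3. Atf5, with the smallest SD (0.15), had 96 genes within 0.1, and Lhx2 (SD 0.20) had 25.

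Nearest to Ebf1 were Ryk (0.036) and Rnf167 (0.037), to Ebf2 Ppm1l (0.041) and Srcap (0.049), and to Atf5 Zfp335 (0.042) and Gss (0.048). Lhx2 was nearest to Dyrk1b (0.046) and Pdzd4 (0.064), Ldb1 to Zfp512b (0.053) and Bud23 (0.055), and Emx2 to Adprh (0.048) and Qdpr (0.049). Among the regulators themselves the most alike pair was Ebf1 with Ebf3 (0.068) and the least alike Emx2 with Ebf4 (0.74). The highest MOE library over the lowest had a median of 1.82 over all genes and of 1.59 over the 6686 genes with a mean of 50 or more. The measure describes these 6 libraries, which share the library kit and differ in depth.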

How the data were processed

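Deposited values were used as given. Both tables hold values that the authors name RPKM. According to the submitters' processing notes, Bowtie2 2.1, STAR 2.3.0, Picard 1.64, featureCounts and DESeq and the builds NCBIM37 and mm9 were used, with no order or normalization formula. In the MOE table, ratios between libraries could be written with whole reads for 14613 of 14613 genes (100%; relative tolerance 1e-05), and the library factor followed a median-ratio factor more closely than total reads. The mOSN table has 1 pooled column per genotype, so the planned mOSN model was replaced by values and a 2-fold count. How its 2 libraries were combined, and their depth, are not given in the sources used here.

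Values were transformed to log2(value + 0.5), which understates changes of low genes. A gene was kept if at least 2 columns reached 0.5 (14602 genes in MOE, 14738 in mOSN). MOE contrasts were two-sided tests in limma 3.58.1 under R 4.3.3, with empirical Bayes moderation, a mean-variance trend and Benjamini-Hochberg adjustment over all genes, checked on simulated data. Python 3.11.15 was used for the rest. Named genes are the 9 regulators, the 2 largest estimates of each list and comparison, and the 2 nearest profiles of each regulator; some of these are not reported here. The regulators and lists were chosen with earlier results of these data known. Promoter sequences are RefSeq's, and no coordinates were matched to the authors' build.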

Additional observations from a re-analysis of the deposited data

How the results depend on the processing

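Under the alternatives that carry a test (pseudocount of 1, no filter on low values, median-ratio scaling, no mean-variance trend, voom on recovered reads, libraries left out), 0 of 288 tests of a regulator reached a limma adjusted p of 0.05, 267 kept their direction and 21 reversed, all with libraries left out. The odor count of 2 genes became 1 with median-ratio scaling, 0 with no mean-variance trend, 6 with voom and 1 with no genotype block. With a genotype pair left out it ranged from 0 (no Het pair, or no KO pair) to 4 (no WT pair). The Het against WT count of 0 genes ranged from 0 to 27, with 27 without WT water. The number of regulators with both Het libraries below both WT libraries ranged from 4 to 7. At 1.5-fold, 6089 genes were apart in KO mOSN and 3301 in Het mOSN, instead of 2998 and 1384 at 2-fold.

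With libraries left out, odor estimates (log2) ranged from -0.0075 to 0.31 for Ldb1, -0.35 to 0.027 for Emx2, -0.37 to 0.13 for Ebf4 and -0.12 to 0.16 for Atf5. KO against WT ranged from -0.22 to 0.15 for Lhx2, -0.031 to 0.39 for Ldb1, -0.058 to 0.095 for Ebf1, -0.24 to 0.013 for Ebf2, -0.063 to 0.15 for Ebf3, -0.24 to 0.51 for Ebf4, -0.089 to 0.038 for Kdm1a and -0.11 to 0.24 for Atf5. Het against WT ranged from -0.56 to 0.14 for Lhx2, -0.38 to 0.16 for Ldb1, -0.19 to 0.49 for Emx2 and -0.38 to 0.11 for Atf5, and kept its sign for the 4 Ebf genes and Kdm1a. The odor effect in KO, as a value with no test, also changed sign when set against 1 genotype instead of WT and Het together. Against WT alone it was 0.02 for Lhx2, 0.20 for Ldb1, 0.15 for Ebf2 and 0.14 for Atf5. Against Het alone it was -0.07 for Ebf1 and -0.06 for Kdm1a. By replicate number, no paired analysis was possible because mOSN columns are pooled over numbered libraries and MOE has 1 library per genotype and treatment. The MOE tests did match libraries in another way: odor was blocked by genotype, and KO and Het against WT by treatment. With 1 or 2 residual degrees of freedom, a regulator that did not pass may still differ by any amount within its interval.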
